A study of Mus musculus with 12 samples.

Results

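Ugt2b38 and 8 related mouse UDP-glycosyltransferase genes were followed across 12 whole-kidney RNA sequencing libraries. The members were 7 Ugt2b genes (Ugt2b38, Ugt2b5, Ugt2b34, Ugt2b35, Ugt2b36, Ugt2b37 and Ugt2b1) and 2 Ugt3a genes (Ugt3a1 and Ugt3a2), 9 of the 27179 genes in the table, found by their NCBI Gene numbers. Ugt2b38 was chosen by its high values in FAN1KO kidneys, so its differences between groups are given as a description without a test, and the other members were listed because they belong to the same gene families. Of the 9 members, 6 reached a TPM (a level corrected for gene length and library size) of at least 1 in at least 3 libraries and were tested, and 3 (Ugt2b35, Ugt2b36 and Ugt2b1) did not.

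UGT2B enzymes sit in the membrane of the endoplasmic reticulum and join glucuronic acid, taken from UDP-glucuronic acid, to steroids, bile acids, fatty acid products and drugs, which makes these compounds soluble enough to leave in bile or urine. The proximal tubule is the main site of this reaction in the kidney, and the mouse Ugt2b genes lie side by side in 1 cluster. The UGT3A enzymes are relatives whose human counterparts use other UDP sugars, such as UDP-N-acetylglucosamine or UDP-glucose, in place of UDP-glucuronic acid.

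The study asked how kidneys without the DNA crosslink repair nuclease FAN1 in the proximal tubule respond to repeated low-dose cisplatin, a drug that crosslinks DNA. FAN1KO mice (γGT1-Cre;Fan1-/-), in which Cre driven by the proximal tubule promoter of Ggt1 deletes Fan1, and wild-type mice received either saline or 2 mg/kg cisplatin into the abdomen once a week for 5 weeks. Each of the 4 groups had 3 libraries, and all mice were 8 to 12 weeks old and of a background labelled mixed. Other kidney cells keep Fan1 in this model.

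The libraries held 37201916 to 82947187 reads assigned to genes, recovered from the steps in the TPM. Fan1 itself was at 1.98 to 3.80 TPM in the 6 wild-type libraries and at 1.17 to 3.51 in the 6 FAN1KO libraries, so its whole-gene level overlapped between genotypes. FAN1KO cisplatin 3, wild-type cisplatin 1, FAN1KO saline 1 and wild-type saline 3 held RNA of 4 Y-linked genes, which marks tissue from males, with a mean log2(TPM + 1) of 3.46 to 3.93 against at most 0.10 in the other 8 libraries. The labels give no sex, and results that rest on these 4 libraries are given with and without them. The defining proximal tubule transporter Slc34a1 was detected in all 12 libraries, at 837 to 3690 TPM.

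The 7 Ugt2b members lie within 534 kilobases of mouse chromosome 5 in assembly GRCm38.p6, and the order along the chromosome was Ugt2b34, Ugt2b1, Ugt2b35, Ugt2b36, Ugt2b5, Ugt2b37 and Ugt2b38. Ugt2b38 covers chr5:87409939-87424203 on the minus strand. Ugt3a1 and Ugt3a2 are neighbours on chromosome 15. Across the length of their GENCODE transcripts, Ugt2b38 was 95.7% identical to Ugt2b5 and 93.5% to Ugt2b37, but 69.1% to Ugt2b34. Of the 1742 stretches of 150 bases in the Ugt2b38 transcript, the length of 1 sequenced read, 334 (19.2%) also occur without a mismatch in Ugt2b5, and no such stretch is shared by any other member. A read from these stretches cannot by itself be told apart between Ugt2b38 and Ugt2b5, though the other read of its pair may lie outside them. How the authors' counting divided such reads is not given in the sources used here. The values of Ugt2b5 are therefore uncertain wherever Ugt2b38 is much higher.

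RefSeq promoter entries in the GRCm38.p6 table matched 8 of the 9 members. The 250 bases before the start of Ugt2b38 were 94.9% identical to those of Ugt2b37, 86.7% to those of Ugt2b5 and 46% to those of Ugt2b34. The first 3 are shown 5′ to 3′ because the close likeness of the Ugt2b38 and Ugt2b37 sequences stands beside the unlike levels of these genes described next. The windows are chr5:87424204-87424453 (Ugt2b38), chr5:87254789-87255038 (Ugt2b37) and chr5:87140341-87140590 (Ugt2b5), all on the minus strand. Capitals in Ugt2b37 and Ugt2b5 mark the bases that differ from, or have no partner in, the aligned Ugt2b38 window.
Ugt2b38: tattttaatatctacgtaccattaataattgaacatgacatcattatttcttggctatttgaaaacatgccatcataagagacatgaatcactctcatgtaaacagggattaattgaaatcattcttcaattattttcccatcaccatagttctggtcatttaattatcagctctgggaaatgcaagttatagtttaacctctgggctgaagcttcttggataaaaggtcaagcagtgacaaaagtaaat
Ugt2b37: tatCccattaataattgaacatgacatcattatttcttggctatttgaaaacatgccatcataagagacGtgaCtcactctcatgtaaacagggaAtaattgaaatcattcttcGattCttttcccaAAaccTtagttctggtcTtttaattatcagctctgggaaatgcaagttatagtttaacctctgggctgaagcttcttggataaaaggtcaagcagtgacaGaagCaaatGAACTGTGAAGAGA
Ugt2b5: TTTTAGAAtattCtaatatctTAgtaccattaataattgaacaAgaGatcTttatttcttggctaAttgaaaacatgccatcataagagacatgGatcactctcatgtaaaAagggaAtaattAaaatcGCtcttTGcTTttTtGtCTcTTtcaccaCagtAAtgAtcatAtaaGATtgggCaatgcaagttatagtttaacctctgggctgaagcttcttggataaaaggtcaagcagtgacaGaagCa
The 26 capitals of Ugt2b37 include the bases by which its window is shifted against that of Ugt2b38, and Ugt2b5 had 42 capitals. Of 4 motifs searched on both strands, TTCNNNGAA (the STAT5 site, in 7.18% of 27025 promoter windows of the same length) and TGACNNNGC (an NRF2 site, 10.1%) had no match in any of the 8 members with an entry. TGTTCT (the core of a steroid receptor site, 16.2%) matched in Ugt2b34 alone, and TATAAA (the TATA box, 13%) matched in Ugt3a1 alone. These matches describe the letters of the windows and do not show binding.

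Ugt2b38 was close to absent from wild-type kidneys and high in every FAN1KO kidney. The wild-type saline libraries were at 0.0165, 0.0894 and 0.854 TPM (1, 4 and 81 reads) and the wild-type cisplatin libraries at 0.515, 0.215 and 0.152 TPM (33, 9 and 6 reads). The FAN1KO saline libraries were at 1076, 43.1 and 81.1 TPM (59493, 1951 and 3841 reads) and the FAN1KO cisplatin libraries at 36, 27.1 and 99.5 TPM (1426, 1153 and 4178 reads). The lowest FAN1KO library thus stood far above the highest wild-type library, under both treatments. In these whole-kidney libraries, fewer cells of a type and less RNA per cell cannot be told apart.

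Mean Ugt2b38 levels were 0.32 ± 0.464 TPM in wild-type saline, 400 ± 585 in FAN1KO saline, 0.294 ± 0.194 in wild-type cisplatin and 54.2 ± 39.5 in FAN1KO cisplatin (SD, n = 3 each). On the log2(TPM + 1) scale, which understates the change of low genes, the FAN1KO mean exceeded the wild-type mean by 6.95 under saline and by 5.20 under cisplatin. Leaving out 1 library at a time moved these differences between 5.57 and 7.87 and between 4.65 and 5.57. Other settings gave 5.84 to 10.03 and 4.77 to 7.32, with the highest values from voom on recovered reads and the lowest without the libraries with Y-linked RNA. Ugt2b38 was selected on this contrast, in which 12.5% (saline) and 44.3% (cisplatin) of all 14972 genes tested also had no overlap between genotypes, so nothing is read from the absence of overlap.

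In wild-type kidneys the cisplatin and saline libraries overlapped at these low levels, and Ugt2b38 passed the filter only through the FAN1KO libraries, so no test of it is given there. In FAN1KO kidneys the cisplatin and saline libraries overlapped, and the log2 difference of -1.74 was decided by FAN1KO saline 1, without which it was -0.35.

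FAN1KO saline 1 stood apart from every other library for Ugt2b38. Its level of 1076 TPM was close to that of Ugt3a2 in the same library (1091 TPM) and was 17.3 times the mean of the other FAN1KO saline libraries. This library held Y-linked RNA, and Ugt2b38 was also highest in the library with Y-linked RNA in each of the other 3 groups, at 16.1 times the mean of the other 2 libraries in wild-type saline, 2.81 times in wild-type cisplatin and 3.15 times in FAN1KO cisplatin. The wild-type ratios rest on few reads, 81 against 1 and 4 under saline and 33 against 9 and 6 under cisplatin. Among the 8 libraries without Y-linked RNA, Ugt2b38 ranged from 0.0165 to 0.215 TPM in wild-type and from 27.1 to 81.1 TPM in FAN1KO. The summed TPM of 6 liver markers was also highest in FAN1KO saline 1, at 593 against 41.2 to 377 elsewhere, and Ttr made up 562 of it. The next highest sums, 377 and 248, were in the wild-type libraries with Y-linked RNA. Ttr was at 361 and 235 TPM in these, against means of 82.6 and 27.4 TPM in the other 2 libraries of each group. In FAN1KO cisplatin Ttr was at 27.9 TPM with Y-linked RNA and at a mean of 31.2 TPM without. In FAN1KO saline 1 the defining liver gene Alb was at 3.6 TPM, and Ahsg and the liver-rich member Ugt2b1 were listed at 0. Of the 6 liver markers 5 were tested. Under saline 1 (Apoa2) was higher in FAN1KO, beside 0.341% of all genes, and under cisplatin 3 (Apoa2, Fgb and Fga), beside 19.6%. With 0 called lower, the median log2 differences over the 5 were 0.47 and 1.80 (-0.04 and 0.24 over all genes tested). Alb and Ttr went the other way under cisplatin without a call, at means of 2.26 against 8.76 and 30.1 against 96.7 TPM. Apoa2 was at 1.74, 3.82 and 1.46 TPM in wild-type saline and 12.1, 13.3 and 10.5 in FAN1KO saline. Under cisplatin it was at 0.908, 2.43 and 1.65 TPM in wild-type and 5.96, 9.15 and 9.35 in FAN1KO. Its FAN1KO mean was 5.13 (saline) and 4.9 (cisplatin) times the wild-type mean without overlap, against 1250 and 184 times for Ugt2b38. The summed marker level overlapped between genotypes, at 100 to 377, 57.3 to 593, 41.2 to 248 and 88.6 to 123 TPM in the same order of groups. The part of liver markers in the Ugt2b38 values was not tested.

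**Figure D1:**
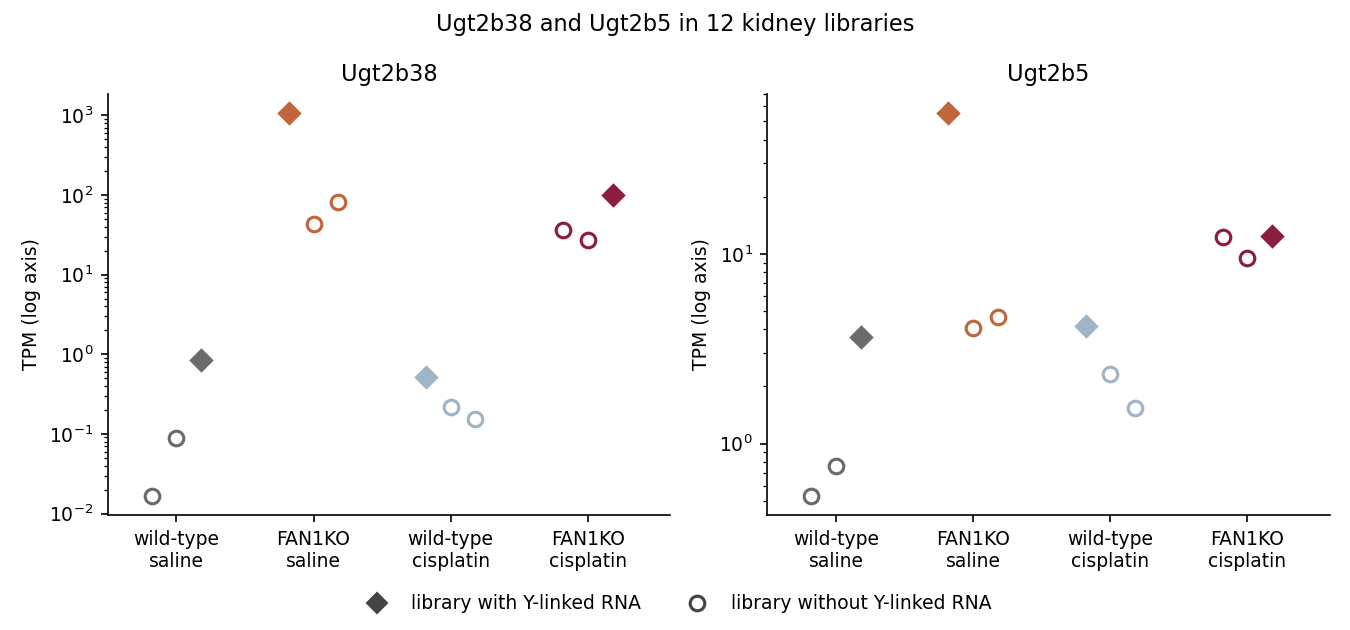
Levels of Ugt2b38 (left) and Ugt2b5 (right) in each library, in TPM on a log axis, by group; filled diamonds are libraries with Y-linked RNA and open circles are those without. Ugt2b38 sits between 0.0165 and 0.854 TPM in wild-type and between 27.1 and 1076 TPM in FAN1KO, while the genotypes lie closer for Ugt2b5.

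Ugt2b5, a broadly acting enzyme that is abundant in mouse liver, had the pattern most like Ugt2b38 among the members. Its levels were 0.528, 0.76 and 3.65 TPM in wild-type saline, 55.5, 4.09 and 4.65 in FAN1KO saline, 4.18, 2.34 and 1.54 in wild-type cisplatin, and 12.2, 9.55 and 12.4 in FAN1KO cisplatin. Every FAN1KO library was above every wild-type library of the same treatment, with the closest pair (4.09 against 3.65 TPM) under saline. Of all genes tested, 12.5% under saline and 44.3% under cisplatin also had no overlap between genotypes, so nothing is read from it. An exact permutation test gave the smallest p that 3 against 3 allows, 0.1, in both comparisons. By limma, the FAN1KO mean was 2.34 higher (SE 0.79, adjusted p = 0.356, unadjusted 0.0138) under saline and 1.80 higher (SE 0.79, adjusted p = 0.122) under cisplatin on the log2 scale, so neither passed the 0.05 threshold.

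The call for Ugt2b5 depended on the libraries with Y-linked RNA. Without them the FAN1KO mean was 1.71 higher under saline (adjusted p = 0.00925) and 2.02 higher under cisplatin (adjusted p = 0.000764), from 2 libraries a group, and with Y-linked RNA as a covariate both differences also passed the threshold. Over the alternatives other than leaving out single libraries, the adjusted p ranged from 0.00925 to 0.694 under saline and from 0.000764 to 0.271 under cisplatin. Set against Ugt2b38 in the same library, Ugt2b5 amounted to 5.16, 9.48 and 5.73 TPM per 100 TPM in FAN1KO saline and to 34, 35.2 and 12.4 in FAN1KO cisplatin, but to between 427 and 3200 in wild-type. The 19.2% of the Ugt2b38 transcript shared with Ugt2b5 bears on these ratios, and the part of shared reads in the Ugt2b5 difference was not tested.

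Ugt2b37 was highest in the library with Y-linked RNA of each group, and was called by genotype only under cisplatin without those libraries. It was at 106 TPM in wild-type saline 3, 60.9 in FAN1KO saline 1 and 110 in wild-type cisplatin 1, the libraries with Y-linked RNA, and at 0.878 to 1.45 TPM in the other 6 libraries of these 3 groups. In FAN1KO cisplatin the levels were 23.1 and 12.8 TPM without Y-linked RNA and 66.1 TPM with it. The 2 FAN1KO cisplatin libraries without Y-linked RNA thus stood above all 6 comparable libraries of the other groups. Over all 3 libraries a group, the log2 difference between FAN1KO and wild-type under cisplatin was 1.70 (SE 1.97, adjusted p = 0.559 by limma) and that between cisplatin and saline in FAN1KO 2.15 (SE 1.97, adjusted p = 0.406). Without the 4 libraries with Y-linked RNA these differences were 2.92 (adjusted p = 0.000527) and 3.17 (adjusted p = 0.000183), from 2 libraries a group. Over the same kinds of alternatives the adjusted p ranged from 0.000527 to 0.687 and from 0.000183 to 0.568.

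Ugt2b34, the most divergent Ugt2b member detected in every library, had the opposite arrangement. It was at 30.3 to 66.5 TPM in the 8 libraries without Y-linked RNA and at 4.36, 4.45, 6.84 and 20.6 TPM in those with it. Both the low Ugt2b34 and the high Ugt2b37 were less pronounced in FAN1KO cisplatin 3, where Ugt2b34 was 3 times lower than the mean of the other 2 libraries of its group, against 9, 9.91 and 5.5 times in the other groups. Over all libraries and without a covariate, no comparison of groups was called for Ugt2b34. Its difference between FAN1KO and wild-type under cisplatin was 0.97 (SE 1.04, adjusted p = 0.526 by limma). Without the libraries with Y-linked RNA it was 0.72 (adjusted p = 0.0417), and the adjusted p over the alternatives ranged from 0.0214 to 0.651. The lowest came with Y-linked RNA as a covariate over all 12 libraries. With that covariate Ugt2b34 was also called higher with cisplatin in FAN1KO (adjusted p = 0.0146).

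**Figure D2:**
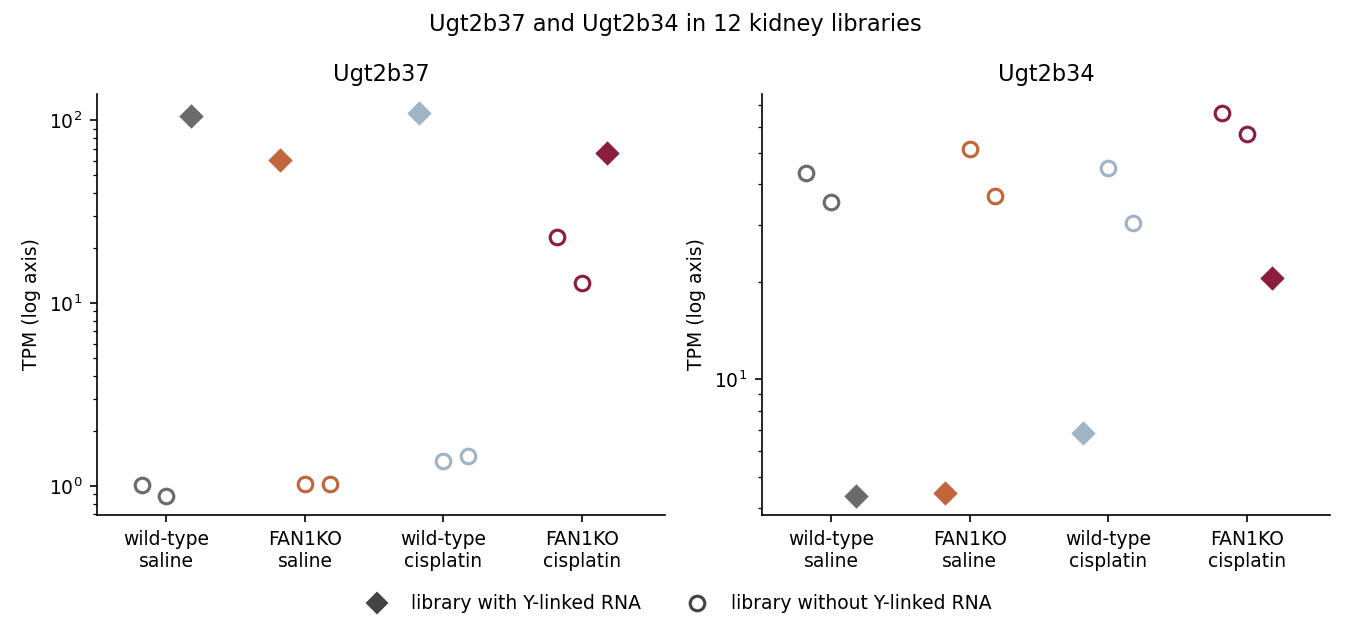
Levels of Ugt2b37 (left) and Ugt2b34 (right) in each library, in TPM on a log axis, by group; filled diamonds are libraries with Y-linked RNA and open circles are those without. The diamonds are the highest point of each group for Ugt2b37 and the lowest for Ugt2b34, and the open circles of FAN1KO cisplatin lie at 12.8 and 23.1 TPM for Ugt2b37.

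The 3 members under the filter were close to absent, with 1 exception. Ugt2b35 had 0 to 2 reads in 9 libraries, and 102, 176 and 35 reads (1.45, 2.34 and 0.47 TPM) in the FAN1KO cisplatin libraries. Ugt2b36 had at most 2 reads in 11 libraries and 14 reads (0.254 TPM) in FAN1KO saline 1, and Ugt2b1, a major liver enzyme, was listed at 0 in 9 libraries and at 0.0751, 0.07 and 0.0355 TPM in FAN1KO cisplatin. With no filter on low values, the count of members called by genotype under cisplatin and in FAN1KO by treatment includes Ugt2b35 and Ugt2b1, beside 16.8% and 28.4% of the 22557 genes then tested, and nothing is read from this because both were at or near 0 in the other groups.

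The make-up of the Ugt2b mRNA is given as a description, since every share and sum that includes Ugt2b38 rests on the values for which it was chosen. In the 4 wild-type libraries without Y-linked RNA, Ugt2b34 made up 90.6% to 96.5% of the summed TPM of the 7 Ugt2b genes, and in the 2 wild-type libraries with it, Ugt2b37 made up 92.3% and 90.5%. Ugt2b38 supplied 0.0369% to 0.742% of the sum in wild-type, but 89.9%, 43.3% and 65.6% in FAN1KO saline and 25.8%, 24.8% and 50% in FAN1KO cisplatin. Ugt2b38, whose upstream window is 94.9% identical to that of Ugt2b37, was at most 0.157 times as high as Ugt2b37 in any wild-type library and at least 1.51 times as high in any FAN1KO library. The summed Ugt2b level was 33.4 to 121 TPM in wild-type and 99.6 to 1197 TPM in FAN1KO. Without Ugt2b38 the sum was 33.3 to 121 TPM in wild-type and 42.4 to 121 TPM in FAN1KO, so the genotypes overlapped. Of that sum, Ugt2b34 made up 64.3% to 96.5% in the 8 libraries without Y-linked RNA and 3.67% to 20.7% in the 4 with it.

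**Figure D3:**
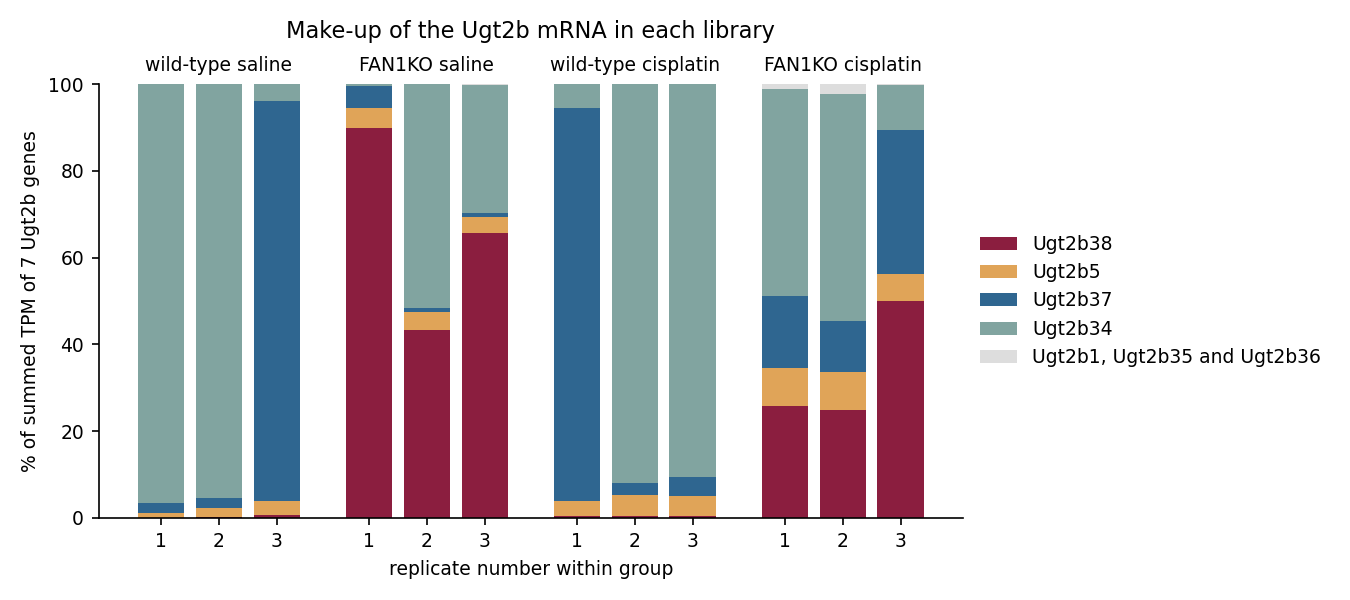
Share of each Ugt2b gene in the summed TPM of the 7 Ugt2b genes, in percent, 1 bar a library, with libraries numbered within their group. Ugt2b38 takes 24.8% to 89.9% of each FAN1KO bar and under 1% of each wild-type bar, where Ugt2b34 or, in the 2 libraries with Y-linked RNA, Ugt2b37 fills over 90%.

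In every wild-type library the Ugt3a genes were the most abundant members, and both fell in FAN1KO kidneys given cisplatin. Ugt3a1 was at 234, 187 and 325 TPM in wild-type saline, 248, 114 and 140 in FAN1KO saline, 263, 131 and 130 in wild-type cisplatin, and 22.6, 25.1 and 84.1 in FAN1KO cisplatin. Ugt3a2 was at 622, 576 and 987 TPM in wild-type saline, 1091, 670 and 562 in FAN1KO saline, 939, 518 and 524 in wild-type cisplatin, and 123, 149 and 326 in FAN1KO cisplatin. All 3 FAN1KO cisplatin libraries were below each of the other 9 for both genes. Of all genes tested, 44.3% also had no overlap between genotypes under cisplatin, so nothing is read from the absence of overlap. For both Ugt3a genes the library with Y-linked RNA was the highest of its group in all 4 groups.

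Against wild-type under cisplatin, Ugt3a1 fell by 2.15 (SE 0.49, adjusted p = 0.012 by limma) and Ugt3a2 fell by 1.80 (SE 0.40, adjusted p = 0.0103) on the log2 scale. Mean levels were 44 ± 34.8 against 175 ± 76.7 TPM for Ugt3a1 and 199 ± 111 against 660 ± 241 TPM for Ugt3a2 (SD, n = 3 each). The adjusted p without FAN1KO cisplatin 1 was 0.0584 for Ugt3a1 and 0.0508 for Ugt3a2, and without FAN1KO cisplatin 2 it was 0.0503 and 0.0428. Over all libraries left out in turn the adjusted p ranged from 0.00222 to 0.0584 for Ugt3a1 and from 0.00372 to 0.0508 for Ugt3a2. Against FAN1KO saline, Ugt3a1 fell by 2.09 (SE 0.49, adjusted p = 0.0079) and Ugt3a2 fell by 2.03 (SE 0.40, adjusted p = 0.00322), and both calls held without each library in turn.

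**Figure D4:**
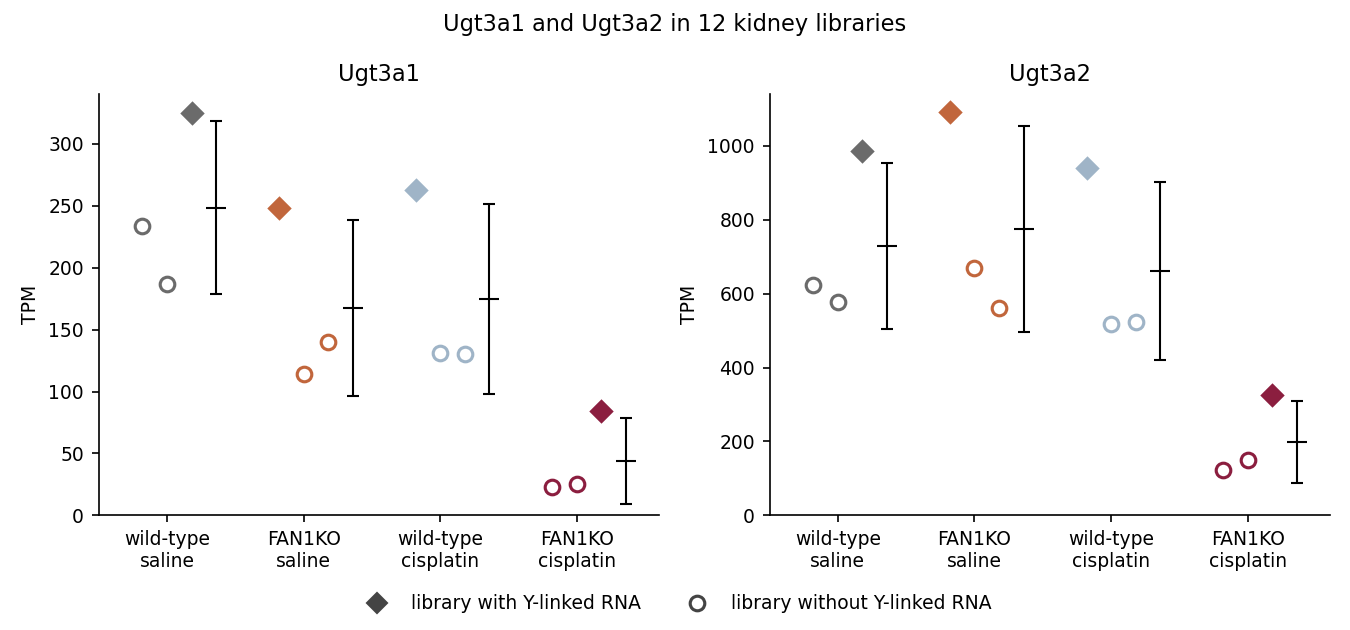
Levels of Ugt3a1 (left) and Ugt3a2 (right) in each library, in TPM on a linear axis, by group; filled diamonds are libraries with Y-linked RNA, open circles those without, and the bars give the group mean ± SD of 3 libraries. The FAN1KO cisplatin libraries lie between 22.6 and 84.1 TPM for Ugt3a1 and between 123 and 326 TPM for Ugt3a2, under all other libraries.

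Neither Ugt3a gene differed detectably by genotype under saline or by cisplatin in wild-type. Under saline the FAN1KO minus wild-type difference was -0.61 (SE 0.49, adjusted p = 0.949) for Ugt3a1 and 0.07 (SE 0.40, adjusted p = 1) for Ugt3a2 by limma. In wild-type kidneys the cisplatin minus saline difference was -0.55 (SE 0.49, adjusted p = 1) and -0.16 (SE 0.40, adjusted p = 1). The interaction of genotype and cisplatin tests whether the cisplatin response differed by genotype. It was -1.54 (SE 0.69, adjusted p = 0.199) for Ugt3a1 and -1.87 (SE 0.56, adjusted p = 0.0717) for Ugt3a2 by limma. Neither passed the threshold over all libraries without a covariate. Both passed it with Y-linked RNA as a covariate over all 12 libraries, and without the libraries with Y-linked RNA. The adjusted p over alternatives other than single libraries left out was 0.00284 to 0.258 for Ugt3a1. For Ugt3a2 it was 0.000327 to 0.128. Without FAN1KO cisplatin 3 both interactions passed the threshold, at an adjusted p of 0.0401 and 0.0243, where leaving out each library in turn gave 0.0401 to 0.412 for Ugt3a1 and 0.0243 to 0.178 for Ugt3a2.

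Proximal tubule markers moved with the Ugt3a genes. Under cisplatin, 5 of 8 markers (Slc34a1, Lrp2, Cubn, Slc22a6 and Slc13a3) were lower in FAN1KO than in wild-type, with a median log2 difference over the list of -1.16 against 0.24 over all genes tested, and the 8 together summed to 1412, 1549 and 2724 TPM in FAN1KO cisplatin and to 3528 to 5486 TPM in wild-type cisplatin. All 4 tubule injury markers (Havcr1, Lcn2, Krt20 and Vcam1) were higher. Of all genes tested, 4.37% were called lower and 19.6% higher in this comparison, shares that depend on scaling. Relative to Slc34a1, the summed Ugt3a level was 17.4, 18.3 and 25.8 TPM per 100 TPM in FAN1KO cisplatin, 37.6, 29.8 and 19 in FAN1KO saline and 26.4 to 48.3 in wild-type, so the FAN1KO cisplatin libraries were below every wild-type library on this ratio too but overlapped FAN1KO saline. The part of the lower tubule marker level in the Ugt3a result was not tested.

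Counted over the 5 tested members other than Ugt2b38, 2 were called in FAN1KO against wild-type under cisplatin, 0 higher and 2 lower, where 23.9% of all genes tested were called (19.6% higher and 4.37% lower). In FAN1KO against wild-type under saline 0 of 5 were called by limma, with 1 at an unadjusted p under 0.05, beside 0.768% of all genes (0.341% higher and 0.427% lower). In cisplatin against saline within FAN1KO 2 of 5 were called, both lower, beside 39.8% of all genes (34.9% higher and 4.9% lower). The comparison of cisplatin with saline in wild-type called 0 of these 5 (0 at an unadjusted p under 0.05) and 0.0601% of all genes, and the interaction called 0 of 5 (2 at an unadjusted p under 0.05) and 6.24% of all genes. The 3 comparisons with FAN1KO cisplatin share those libraries. Their higher and lower counts depend on scaling, since median-ratio scaling turned the 2931 higher and 654 lower genes under cisplatin by genotype into 1389 and 1155, and the 5229 higher and 733 lower genes of FAN1KO by treatment into 2333 and 2047, while the Ugt3a genes were called lower under both scalings.

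Leaving out the libraries with Y-linked RNA raised these counts. By genotype under cisplatin 5 of 5 members were then called (Ugt2b5, Ugt2b34 and Ugt2b37 higher, Ugt3a1 and Ugt3a2 lower) beside 36.7% of all genes. Wherever Ugt2b5 is counted as called, reads shared with Ugt2b38 may enter, and their part was not tested. Under saline 1 of 5 was called (Ugt2b5 higher) beside 1.97%, in FAN1KO by treatment 4 of 5 (Ugt2b5 and Ugt2b37 higher, both Ugt3a genes lower) beside 52.8%, and in the interaction 3 of 5 (Ugt2b37 higher, both Ugt3a genes lower) beside 16.3%. With Y-linked RNA as a covariate over all 12 libraries, the counts were 4, 1, 4 and 2 of 5, beside 48.9%, 2.81%, 61.1% and 31.6% of all genes in the same order.

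**Figure D5:**
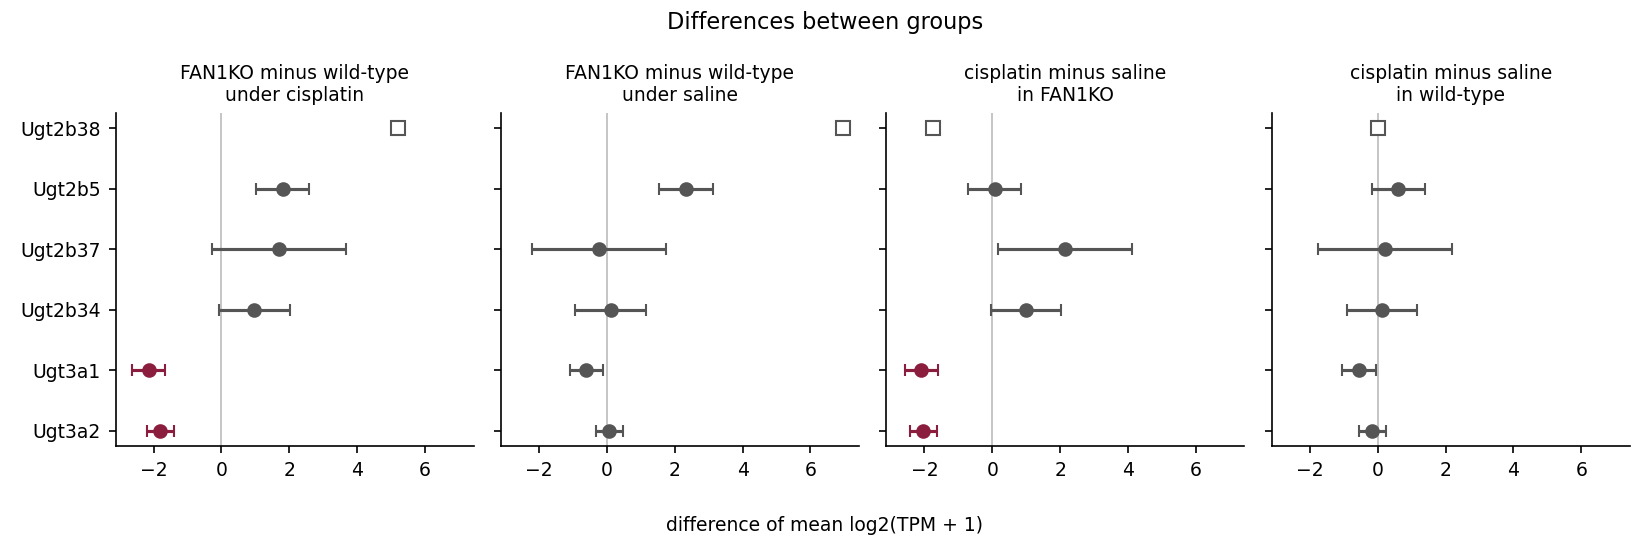
Differences between groups of mean log2(TPM + 1) for the 6 tested members, 1 panel a comparison, with bars of 1 SE from limma; red points passed an adjusted p of 0.05, grey points did not, and open squares are the differences of Ugt2b38, drawn without an error because they are not tested. The red points are Ugt3a1 and Ugt3a2 in FAN1KO minus wild-type under cisplatin and in cisplatin minus saline in FAN1KO, at -1.80 to -2.15.

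Over the 12 libraries, the tested genes whose log2(TPM + 1) followed Ugt2b38 most closely were H2bc7 (a histone gene, Pearson r = 0.971), Nlrc4 (an inflammasome receptor, 0.944), Hmgcs1 (a cholesterol synthesis enzyme, 0.939), Gm11127 (0.930) and Lrrc28 (0.921), and the most opposed were AA465934 (-0.968), Hddc3 (-0.968) and Slc35b4 (-0.957). For each of these 8 genes the FAN1KO and wild-type ranges did not overlap, as at 5.11 to 13.3 TPM against 44.9 to 77.2 TPM for AA465934. Hddc3 (chr7:80343075-80346716) and Lrrc28 (chr7:67513410-67645336) lie on the chromosome of Fan1 (chr7:64345385-64374128). The rest lie on other chromosomes, H2bc7 and Hmgcs1 on 13, Nlrc4 and Gm11127 on 17, AA465934 on 11 and Slc35b4 on 6. A part of chromosome position in these levels was not tested. Among the members, r with Ugt2b38 was 0.881 for Ugt2b5, 0.296 for Ugt2b37, -0.102 for Ugt2b34, -0.312 for Ugt3a1 and -0.169 for Ugt3a2. These values are a description over libraries that share the genotype split on which Ugt2b38 was chosen.

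The neighbours of Ugt2b38 on chromosome 5 did not share its levels. Ugt2a3, which lies between Ugt2b37 and Ugt2b38, was at 4.84 and 6.54 TPM in the wild-type libraries with Y-linked RNA and at most 0.938 TPM in the other 10. Ugt2a1 and Ugt2a2, on the other side, were listed at 0 in all libraries except for 0.0702 TPM of Ugt2a1 in FAN1KO cisplatin 3. Beyond the cluster, Sult1b1, a sulfotransferase, was at 2.18 to 4.07 TPM and the RNA-binding gene Ythdc1 at 30.3 to 62.2 TPM over the 12 libraries.

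Among 12 other UDP-glycosyltransferases in the table, 9 were tested and 2 were lower in FAN1KO than in wild-type under cisplatin. Of all genes tested 23.9% were called in this comparison, 4.37% of them lower out of all tested. The median log2 difference of the 9 was -0.14, against 0.24 over all genes tested. Ugt1a9, which acts on phenols, fell by 1.44 (SE 0.43, adjusted p = 0.0362 by limma) and Ugt1a10 fell by 0.76 (SE 0.19, adjusted p = 0.0167). None of the 9 was called in the other comparisons by limma (2 at an unadjusted p under 0.05 under saline by genotype, 0 in FAN1KO by treatment, 1 in wild-type by treatment and 0 in the interaction). Ugt1a7c was at 80.8, 50.4 and 44.7 TPM in FAN1KO saline and at 5.67, 5.52 and 19.1 in wild-type saline. These did not overlap, as in 12.5% of all genes tested, at a log2 difference of 2.60 (SE 0.58, adjusted p = 0.0917). Ugt1a2 resembled Ugt2b34, at 0.131, 0.395 and 0.304 TPM in the libraries with Y-linked RNA of 3 groups, 21.6 TPM in that of FAN1KO cisplatin, and 85.7 to 348 TPM in the other 8.

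Among the genes that supply or clear glucuronides few were called. Of 5 genes of UDP-glucuronic acid supply and glucuronide hydrolysis, 0 were called by genotype (0 at an unadjusted p under 0.05 under either treatment), and Ugp2, which makes UDP-glucose, fell by 0.43 (SE 0.13, adjusted p = 0.029) with cisplatin in FAN1KO. The glucuronidase gene Gusb was at 128 TPM in FAN1KO saline 1 and at 18.2 to 39.8 TPM in the other 11 libraries. Of 4 efflux transporters, Abcc2, which exports glucuronides, was higher in FAN1KO under cisplatin by 0.85 (SE 0.21, adjusted p = 0.0171). Among transcription factors known to act on UGT genes, Hnf4a fell by 0.52 (SE 0.13, adjusted p = 0.0201) in the same comparison, while Nfe2l2 was higher by 0.73 (SE 0.21, adjusted p = 0.034). Of 7 tested genes of sulfation, the parallel conjugation route, Sult2b1 was higher by 1.94 (SE 0.32, adjusted p = 0.00274) and 0 were lower. In this comparison 19.6% of all genes tested were called higher and 4.37% lower.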

How the data were processed

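RNA from whole kidneys of 12 mice was sequenced as paired reads of 150 bases. The values deposited by the authors are TPM of 27179 genes with NCBI Gene numbers, in 1 table. The submitters' processing notes name mm10 and limma without a role, and the aligner, annotation and TPM program are not given in the sources used here. Each deposited TPM column summed to 1000000, and 0 columns of values were left out. The labels gave each library's group and number, and do not say that libraries of a number belong together. P-values measure the spread between libraries.

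Genes with at least 1 TPM in at least 3 of 12 libraries (14972) were tested on log2(TPM + 1) with limma 3.58.1 (R 4.3.3), with a mean-variance trend, all 12 libraries in 1 fit of 4 group means, and Benjamini-Hochberg adjustment over all genes tested at a threshold of 0.05. Single members were also compared by exact two-sided permutation tests, which cannot go below 0.1 with 3 against 3. Whole reads were recovered from the TPM steps for 22557 of 22557 genes above 0, within 0.02 reads, and served for depth, read numbers and 1 alternative (limma voom). The length of 1260 bases recovered for Ugt2b1 was ambiguous, so its reads are not given. The fits and the recovery were tested on simulated data. Names came from RefSeq (GRCm38.p6), in which 1904 genes of the table had none, and transcripts, from GENCODE vM21, were aligned with Biopython 1.88. The members and the gene lists were chosen with earlier results of these data known. Named beyond the members were the 5 genes with the highest and the 3 with the lowest correlation with Ugt2b38, its neighbours, and called genes of fixed lists. Ugt1a7c, Ugt1a2 and Gusb were named after their values were seen. A member of the list of transcription factors is not reported here.

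The alternatives were a pseudocount of 0.1, no filter, only the libraries of a comparison, median-ratio scaling, the replicate number as a block, Y-linked RNA as a covariate, no libraries with Y-linked RNA, no trend, voom, and each library left out in turn.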

Additional observations from a re-analysis of the deposited data

How the results depend on the processing

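Among the 5 tested members other than Ugt2b38, the count called between genotypes under cisplatin was 2 and became 4 with no filter on low values (Ugt2b35 and Ugt2b1 enter, both at or near 0 in the other groups), 4 with the Y-linked covariate and 5 without the libraries with Y-linked RNA. The count under saline was 0 and became 1 with the covariate and 1 without those libraries. In FAN1KO by treatment it was 2 and became 4 with no filter, 4 with the covariate and 4 without those libraries. In the interaction it was 0 and became 2 with the covariate and 3 without those libraries. In wild-type by treatment it was 0 under all alternatives. Leaving out 1 library at a time gave 0 to 3 members under cisplatin by genotype (0 without FAN1KO cisplatin 1, 1 without FAN1KO cisplatin 2), 0 to 0 under saline, 2 to 2 in FAN1KO by treatment, 0 to 0 in wild-type by treatment and 0 to 2 in the interaction (2 without FAN1KO cisplatin 3). The causes were not tested.

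With the replicate number as a block the counts stayed at 2, 0, 2, 0 and 0, in the order by genotype under cisplatin and saline, by treatment in FAN1KO and wild-type, and interaction. Same-numbered libraries of different groups, which come from different mice, had a mean correlation of 0.02 (-0.61 to 0.76, 18 pairs), so the block is no pairing of samples, and it changed no call of a member.

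Uncalled differences changed sign under some alternatives, none of them called there. Those of Ugt2b38 in wild-type are listed as a description, since it was near 0 TPM there and no test of it is given. With median-ratio scaling, cisplatin minus saline was -0.02 for Ugt2b38 in wild-type and -0.34 for Ugt2b5 in FAN1KO. It was -0.01 for Ugt2b5 in FAN1KO by voom and -0.03 for Ugt2b38 in wild-type with the covariate. Without the libraries with Y-linked RNA the Ugt2b5 interaction was 0.31, Ugt2b34 in wild-type by treatment -0.08 and Ugt2b37 by genotype under saline 0.06. Leaving out 1 library at a time turned the sign of some uncalled differences. These ranged for Ugt2b38 in wild-type by treatment from -0.15 to 0.29. For Ugt2b5 they ranged from -0.54 to 1.2 in FAN1KO by treatment and from -1.14 to 0.59 in the interaction. For Ugt2b34 they ranged from -0.86 to 1.12 under saline by genotype, from -0.02 to 1.62 and from -0.84 to 0.89 by treatment in FAN1KO and wild-type, and from -0.15 to 1.83 in the interaction. For Ugt2b37 they ranged from -1.87 to 1.70 under saline by genotype and from -1.62 to 2.15 in wild-type by treatment, and for Ugt3a2 from -0.20 to 0.31 and from -0.44 to 0.08 in the same 2 comparisons. Of 624 values of members under alternatives, 563 kept their outcome, 3 lost and 20 gained a call, 31 had the other sign, and 7 values of Ugt2b38, which has no test there, moved by more than the spread between replicates. The 624 include Ugt2b38 in wild-type by treatment, from which nothing is read.

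With 3 libraries a group, 1 of them with Y-linked RNA, the SE of a difference was 1.97 for Ugt2b37 and 1.04 for Ugt2b34 on the log2 scale against 0.49 and 0.40 for the Ugt3a genes. Single reads were worth 0.02 to 0.0479 TPM in a gene of 1 kilobase, which sets the precision of Ugt2b38 in wild-type and of the 3 members under the filter, and covers counting error only.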
